A study of Mus musculus with 24 samples.

Results

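The proteasome genes followed here are the protein-coding genes of the deposited annotation whose symbol starts with Psm, a letter from a to g and a digit. That rule found 50 genes on 16 chromosomes (coordinates below are on mm10, GRCm38), among 54532 annotated and 22046 protein-coding genes. A filter on low counts left 14261 genes for testing, and 49 of the 50 members passed it. The member that did not pass was Psmb11, the catalytic subunit of the thymic proteasome, with 1 read in all 24 libraries together. Psmc3ip, a meiotic recombination factor named after a binding partner, matched the rule by name only and is no part of the proteasome. Psma8, the alpha subunit of the testis proteasome, passed the filter at 0.44 FPKM on average.

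The proteasome is the barrel-shaped protease that degrades proteins tagged with ubiquitin. Its 20S core stacks rings of alpha subunits, which gate the entry, around rings of beta subunits, of which Psmb5, Psmb6 and Psmb7 carry the constitutive cutting sites. In cells exposed to interferon, and in many immune cells at rest, Psmb8, Psmb9 and Psmb10 take the places of Psmb5, Psmb6 and Psmb7 and form the immunoproteasome, known for making peptides that are shown on MHC class I molecules. The 19S cap, built of Psmc ATPases and Psmd non-ATPases, recognises and unfolds tagged proteins. Psme proteins are alternative caps, and Psmg proteins and Psmd5, Psmd9 and Psmd10 help assembly.

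Gene expression was measured by sequencing poly(A) RNA of mouse bone marrow macrophages in 8 groups of 3 libraries. Marrow from the tibia of C57BL/6 mice aged 2 to 3 months was cultured with WEHI-3 medium as the source of IL-3 and then with CSF-1, the macrophage growth factor, and was kept without serum for about 16 hours. The groups were Smad2fl (Smad2 fl/fl), MyS2KO (Smad2 fl/fl with LyzMCre), Smad3fl (Smad3 fl/fl) and MyS3KO (Smad3 fl/fl with LyzMCre), each untreated or given TGF-β1 at 10 ng/ml for 4 hours. SMAD2 and SMAD3 are the transcription factors through which TGF-β receptors signal, and the design asks how each shapes the macrophage transcriptome with and without TGF-β1. LyzMCre expresses the recombinase from the lysozyme gene in myeloid cells, so that removal of a floxed gene can be incomplete, and all 8 groups carry floxed alleles. The labels name no animal per library and speak of 8 cDNA libraries where 24 samples exist, so p-values measure only the spread between libraries, which may be technical.

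The libraries held 16868501 to 24918582 counted reads. Smad2 lay between 35.9 and 45.4 CPM (read counts scaled to library size) in Smad2fl and between 34.9 and 47.2 in MyS2KO. A gene-level count does not resolve deleted exons, but Smad2 RNA was not lower under the knockout label, so that group is written as the libraries labelled MyS2KO and its directions rest on the label. Smad3 lay between 369 and 459.6 CPM in Smad3fl and between 161 and 289 in MyS3KO, while the 12 libraries of the Smad2 line held only 26.4 to 66.6. The 8 macrophage markers summed to 15040 to 31020 CPM, against 3.4 to 12.3 CPM for 7 T-cell, 1.69 to 4.36 for 5 B-cell, 0.528 to 12.5 for 7 neutrophil and 14.3 to 40.4 for 6 dendritic cell markers. Smad3fl stood apart on the first principal component, at 63.8 to 83.1 in 5 of its 6 libraries against -65.6 to 18.9 in the other groups, while its untreated library 3 lay at 6.9. Results on Smad3fl were therefore recomputed without both of its libraries numbered 3, and the changed calls are given beside them. Untreated library 3 was also the highest of its group for Psmb9, Psmb10 and Psme1, so leaving it out lowers those Smad3fl means. Treated library 3 lay at 66.5 and did not stand apart, but was highest of its group for these genes too. Calls of these genes gained by this setting below are therefore no added support for a difference. In bulk RNA, fewer cells of a type and less RNA per cell cannot be told apart.

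The promoters of 5 members are printed for the sequence context of genes described below: Psmd1, Psmd12 and Psma1 were the members called higher with TGF-β1, and Psmb5 and Psmb8 are a constitutive subunit and its immunoproteasome counterpart. Each is the 250 bases before the RefSeq transcription start on GRCm38.p6, on the strand of the gene. Capitals mark a match to the SMAD box CAGAC on either strand in the first 3, to the paired SMAD box GTCTAGAC in Psmb5 and to the STAT site core TTCNNNGAA in Psmb8.
Psmd1, chr1:86064369-86064618, plus strand: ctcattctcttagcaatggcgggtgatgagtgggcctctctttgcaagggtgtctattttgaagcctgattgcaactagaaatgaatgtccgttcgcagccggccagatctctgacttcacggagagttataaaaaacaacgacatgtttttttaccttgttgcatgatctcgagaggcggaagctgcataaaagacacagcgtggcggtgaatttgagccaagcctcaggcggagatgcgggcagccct
Psmd12, chr11:107479278-107479527, plus strand: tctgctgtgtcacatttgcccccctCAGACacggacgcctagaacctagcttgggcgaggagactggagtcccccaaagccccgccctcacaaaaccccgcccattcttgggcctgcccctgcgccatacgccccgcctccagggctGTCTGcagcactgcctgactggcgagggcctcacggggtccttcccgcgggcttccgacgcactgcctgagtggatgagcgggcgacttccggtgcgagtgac
Psma1, chr7:114276117-114276366, minus strand: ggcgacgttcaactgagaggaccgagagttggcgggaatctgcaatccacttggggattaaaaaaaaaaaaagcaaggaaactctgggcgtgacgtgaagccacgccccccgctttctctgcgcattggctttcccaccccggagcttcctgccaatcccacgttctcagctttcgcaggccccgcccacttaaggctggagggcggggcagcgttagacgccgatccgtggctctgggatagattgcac
Psmb5, chr14:54617996-54618245, minus strand: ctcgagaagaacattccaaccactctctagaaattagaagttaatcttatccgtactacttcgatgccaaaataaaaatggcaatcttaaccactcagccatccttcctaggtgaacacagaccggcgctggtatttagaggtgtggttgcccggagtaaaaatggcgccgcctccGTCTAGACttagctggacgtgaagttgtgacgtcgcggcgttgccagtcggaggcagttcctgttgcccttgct
Psmb8, chr17:34197945-34198194, plus strand: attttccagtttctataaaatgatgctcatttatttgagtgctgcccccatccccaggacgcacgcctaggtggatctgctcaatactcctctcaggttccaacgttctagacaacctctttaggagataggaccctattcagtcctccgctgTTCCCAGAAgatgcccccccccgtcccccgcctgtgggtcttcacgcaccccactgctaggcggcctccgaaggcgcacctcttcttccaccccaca
Psmd12 held 2 SMAD boxes in its window, while Psmd1 and Psma1 held none. Windows of 300 bases, from 250 before to 50 after the start, were available for 42 of the 50 members. CAGAC occurred on either strand in the windows of 17 of these 42 and in 49.6% of all 32851 windows. GTCTAGAC, a palindrome that shares its last letters with the SMAD box, occurred in Psmb5 alone of the members and in 0.213% of all windows. TTCNNNGAA was found in Psmb8, Psmd2 and Psmg1 (8.3% of all windows), and the interferon response core GAAANNGAA in 7 members, among them Psme1 (8.56% of all windows). CCAAT occurred in 15 members (37.4% of all windows) and TGANNNNGC, the core bound by the proteasome regulator NFE2L1 and by NFE2L2, in 24 (41.3% of all windows). These matches are descriptions of the sequence and show no binding.

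Levels between genes are compared as FPKM, the deposited values scaled by gene length and depth, here as the mean over 24 libraries with the lowest and highest library. The gene lengths that these values imply differ from the deposited length column, as for Psmb7 (2004 against 3421 bases) and Psmd1 (1393 against 7265 bases). Levels and ranks between genes therefore depend on the lengths used. The highest members were the subunits of the interferon-inducible PA28 cap, Psme2 at 582 FPKM (389 to 776) and Psme1 at 431 FPKM (243 to 595). Of the immunoproteasome catalytic subunits, Psmb10 came next at 293 FPKM (129 to 482), while Psmb8 at 193 FPKM (129 to 276) and Psmb9 at 157 FPKM (89.6 to 217) lay below Psmd8, Psmb2, Psmd2 and Psmb6. Of the constitutive catalytic subunits only Psmb6, at 194 FPKM (146 to 265), reached the level of Psmb8, while Psmb5 stood at 58.3 FPKM (42.5 to 80.7) and Psmb7 at 35.8 FPKM (27.5 to 44.9). The untreated macrophages of all 4 genotypes thus already held abundant immunoproteasome transcripts.

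Among the structural parts, the 8 alpha subunits had a median of 130 FPKM, with Psma7 highest at 158 FPKM, and the 4 non-catalytic beta subunits one of 129. The 6 ATPases of the 19S base had a median of 58.5 FPKM, from Psmc2 at 38.7 to Psmc1 at 148. The 11 non-ATPases had one of 86.8, from Psmd3 at 32.4 to Psmd8 at 218. Assembly factors were lower, at 14.6 to 23.2 FPKM for Psmd5, Psmd9 and Psmd10 and at 2.17 to 23.9 for Psmg1 to Psmg4. Psmf1, which encodes the proteasome inhibitor PI31, was the lowest of the broadly expressed proteasome genes apart from Psmg3, at 2.53 FPKM (0.728 to 4.26). The means of the 8 groups lay within 2-fold of each other for 41 of the 49 tested members. The 8 exceptions were Psme1, Psmb9, Psmb10, Psmd1, Psmc6 and Psmf1, and Psma8 and Psmc3ip with at most 1.49 CPM in any library.

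**Figure D1:**
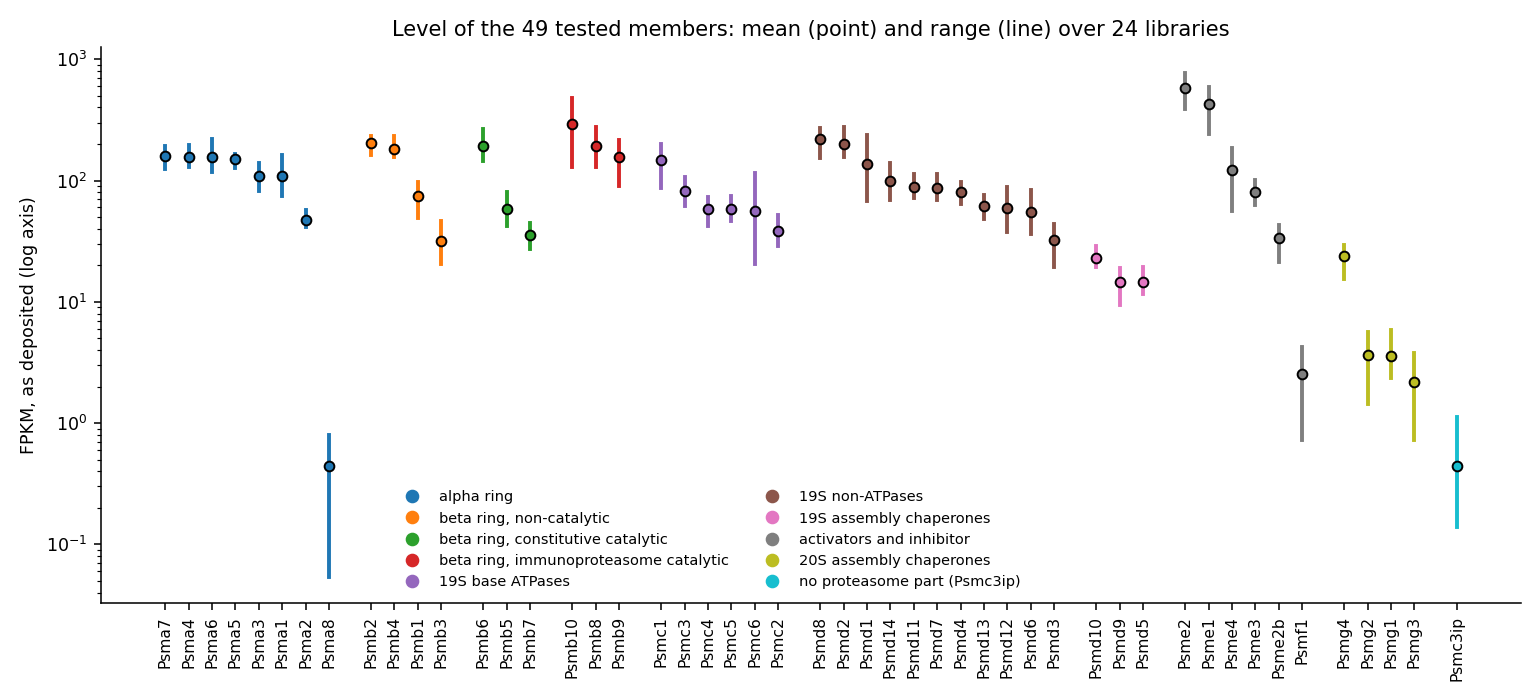
Mean (point) and range (line) of the deposited FPKM over 24 libraries for the 49 tested members, grouped by role, on a log axis. Psme2 and Psme1 are highest, the immunoproteasome subunits Psmb10, Psmb8 and Psmb9 lie between 157 and 293 FPKM on average, and Psmf1 and 3 of the 4 Psmg chaperones lie under 5 FPKM.

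The catalytic subunits were then followed library by library. Psmb8, which replaces Psmb5, was at 279.7, 448 and 340.3 CPM in untreated Smad2fl (libraries 1, 2 and 3, as in all such lists) and at 257, 279 and 241 with TGF-β1. In the libraries labelled MyS2KO it was at 303, 251 and 426 CPM untreated and at 246, 299 and 416 with TGF-β1. In Smad3fl it was at 189, 246 and 366 and at 162, 182 and 247, and in MyS3KO at 263, 241 and 285 and at 383, 202 and 259. Most pairs of groups overlapped, and within treated MyS3KO library 1 stood far above the other two. Psmb8 passed the test in none of the 12 planned comparisons.

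Psmb10, which replaces Psmb7, spread more between genotypes. In Smad2fl it was at 254, 431 and 337 CPM untreated and at 226, 247 and 237 with TGF-β1, and at 291, 276 and 404 and 218, 261 and 358 in the libraries labelled MyS2KO. In Smad3fl it was at 99.1, 141 and 257 untreated and 88.9, 118 and 160.3 with TGF-β1, and in MyS3KO at 241, 205 and 229 and 299, 168 and 181. Libraries 1 and 2 of untreated Smad3fl and all 3 treated ones lay below every library of the other 6 groups, and untreated library 3 lay among them. Psmb9, which replaces Psmb6, was at 105, 133 and 220.1 CPM in untreated Smad3fl, where 168 to 262 was the range of untreated Smad2fl. After TGF-β1 its Smad3fl libraries were at 85.4, 109.9 and 137, below the 159.9 to 162 of Smad2fl without overlap.

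The constitutive partners had closer group means. Psmb5 was at 41.6, 58.2 and 49.1 CPM in untreated Smad2fl and 41.6, 37.4 and 56.5 in untreated Smad3fl, and with TGF-β1 at 41.1, 41.5 and 35.7 and 39.1, 36 and 39.5. Psmb6 ranged from 103 to 221 CPM and Psmb7 from 53.6 to 101 over all libraries, and for Psmb7 every group overlapped every other. Psmb5, Psmb6, Psmb7, Psmb8 and Psmb9 passed the test in none of the 12 planned comparisons, and Psmb10 in 3.

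**Figure D2:**
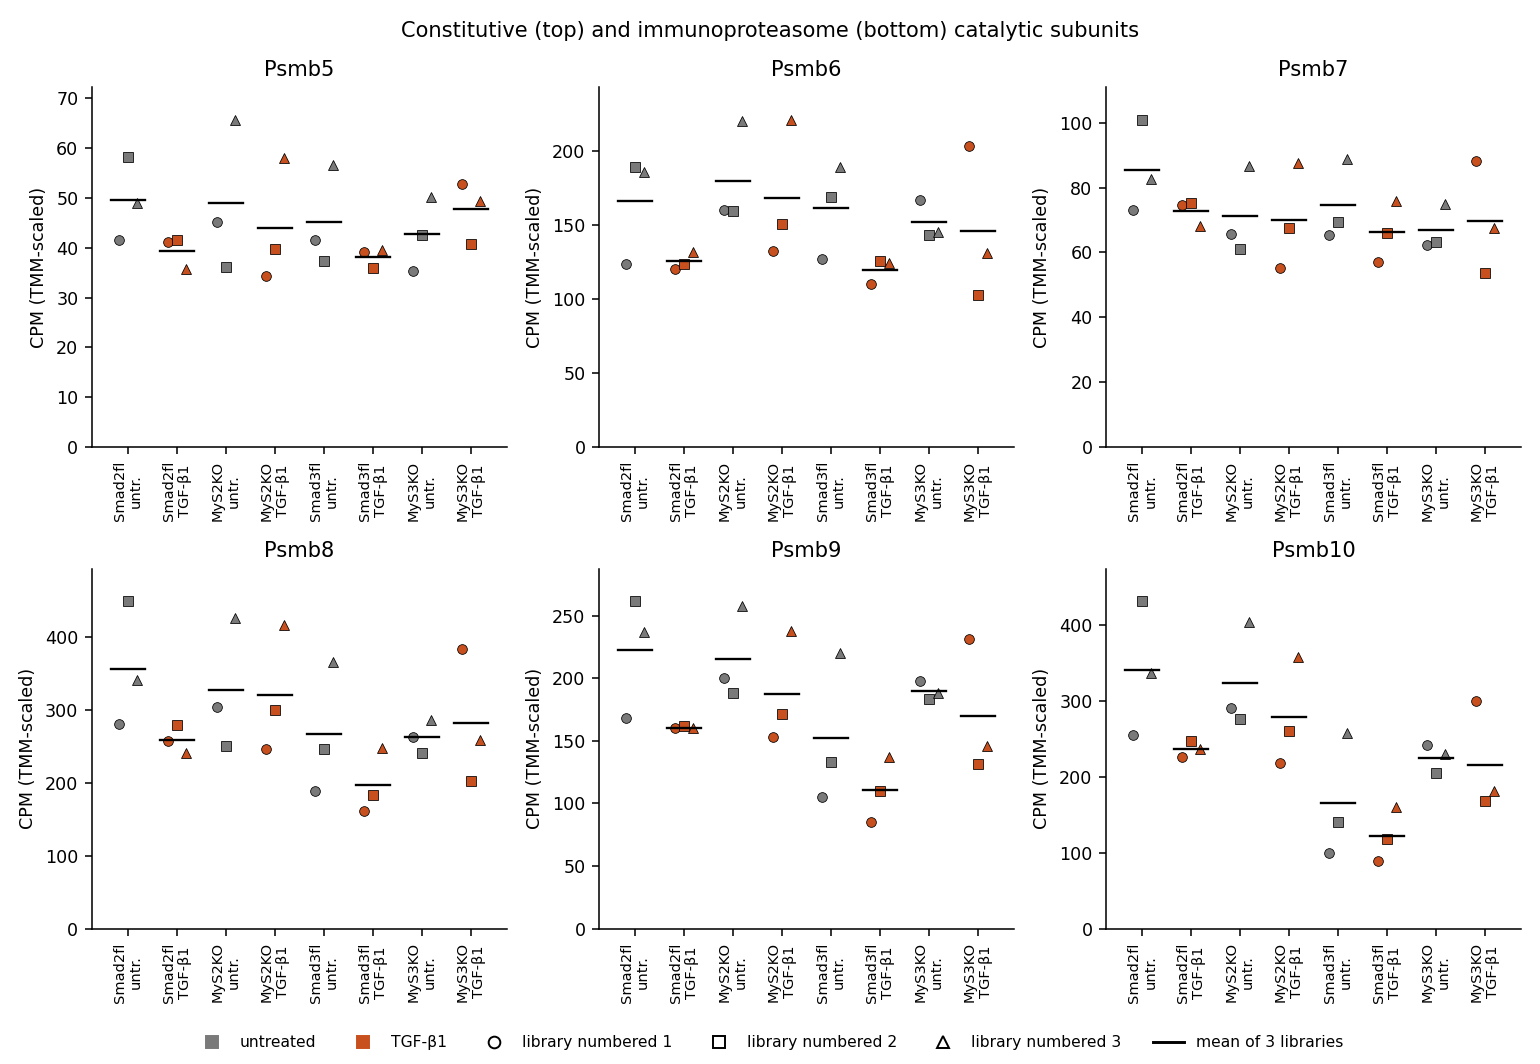
Level in CPM of the constitutive (top row) and immunoproteasome (bottom row) catalytic subunits in each of 24 libraries, by group, with a bar at the mean of 3 libraries and grey for untreated and orange for TGF-β1. Psmb10 is lowest in Smad3fl, where untreated library 3 lies at 257 CPM above libraries 1 and 2.

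Set against its constitutive counterpart in FPKM, Psmb8 exceeded Psmb5 by 2.17-fold to 4.04-fold and Psmb10 exceeded Psmb7 by 3.81-fold to 11.7-fold over the 24 libraries, while Psmb9 reached 0.544 to 0.968 of Psmb6. The log2 ratio of Psmb10 to Psmb7 was 3.13, 3.42 and 3.36 in untreated Smad2fl and 3.48, 3.50 and 3.55 in untreated libraries labelled MyS2KO. It was 1.93, 2.35 and 2.86 in untreated Smad3fl and 3.28, 3.02 and 2.94 in untreated MyS3KO. With TGF-β1 it was 2.93, 3.04 and 3.12 in Smad2fl and 1.97, 2.16 and 2.41 in Smad3fl. The 6 Smad3fl libraries thus held less Psmb10 per Psmb7 than Smad2fl, with no overlap under either treatment. The log2 ratio of Psmb9 to Psmb6 was -0.79, -0.86 and -0.29 in untreated Smad3fl and -0.07, -0.05 and -0.16 in untreated Smad2fl. With TGF-β1 the values were -0.88, -0.70 and -0.37 and -0.11, -0.13 and -0.24, again without overlap. That of Psmb8 to Psmb5 had group means between 1.41 in treated Smad3fl and 1.93 in treated libraries labelled MyS2KO. These ratios are descriptions without a test, and the FPKM values imply other gene lengths than the deposited length column, with which the 3 ratios span 1.36 to 2.53, 0.397 to 0.706 (Psmb9 to Psmb6) and 3.04 to 9.35.

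**Figure D3:**
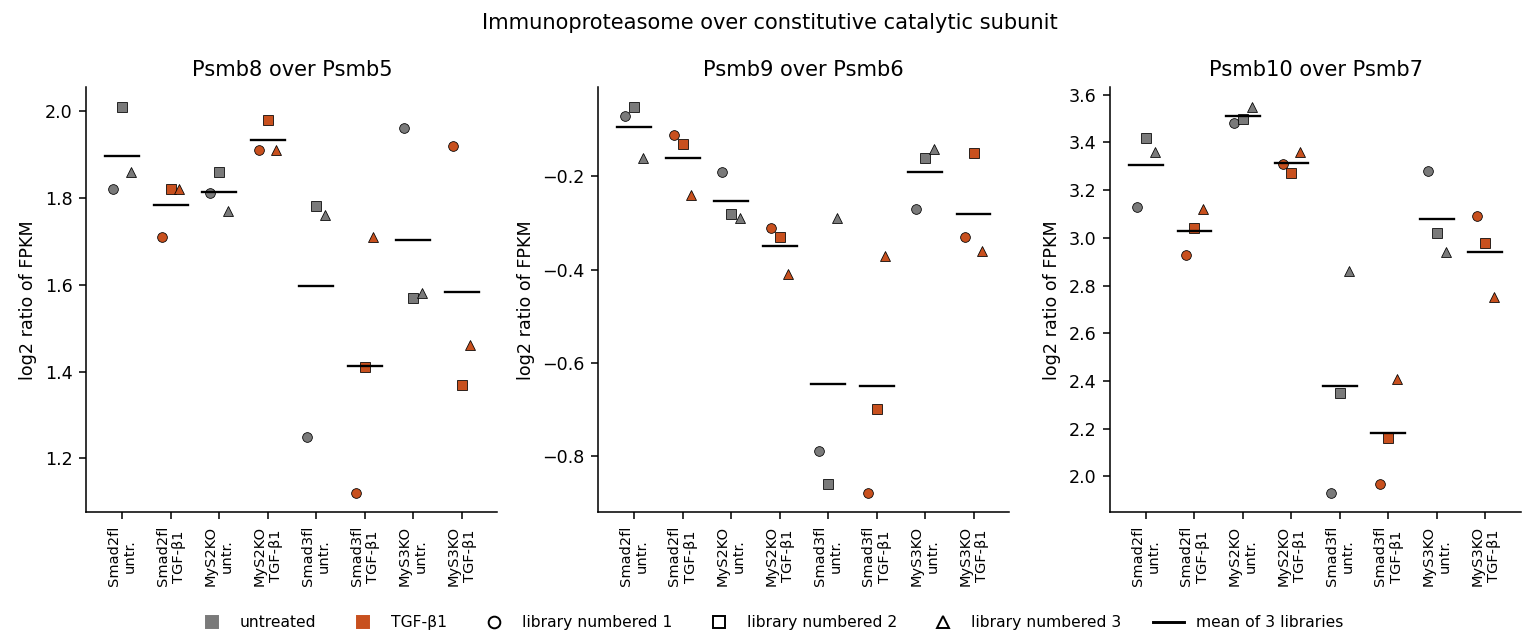
Log2 ratio of FPKM of each immunoproteasome subunit over its constitutive counterpart in each library, by group, with a bar at the mean of 3 libraries (grey untreated, orange TGF-β1). For Psmb10 over Psmb7 the 6 Smad3fl libraries lie between 1.93 and 2.86 and the 6 Smad2fl libraries between 2.93 and 3.42.

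Libraries that stood high or low in these subunits did so in other interferon-responsive genes as well. Irf1, a transcription factor that acts on these subunits, was at 135, 258 and 341 CPM in untreated Smad3fl and 328, 531 and 583 in untreated Smad2fl. With TGF-β1 it was at 392, 134 and 139.8 CPM in MyS3KO, where library 1 stood highest as it did for Psmb8, Psmb9, Psmb10, Psme1 and Psme2, and for Psmb5, Psmb6 and Psmb7. The peptide transporter gene Tap1 was at 1022, 557 and 559 CPM in the same libraries. Psmb8 and Psmb9 lie next to Tap1 and Tap2 in the MHC class II region of chr17 (Psmb8 at chr17:34197721-34201454 and Psmb9 at chr17:34181988-34187764). The ends of Psmb9 and Tap1 overlap by 212 bases on opposite strands, and the strand setting of the counting is not given in the sources used here, so reads there cannot be assigned with certainty.

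TGF-β1 raised 3 members in Smad2fl, all constitutive parts, and lowered none. They were Psmd1, the large scaffold of the 19S base, Psmd12, a lid subunit that links lid and base, and Psma1, an alpha-ring subunit. Psmd1 (chr1:86064387-86139151) was at 148, 152 and 150.1 CPM untreated and 203, 216 and 209 with TGF-β1, with no overlap (0.48 ± 0.10, adjusted p = 0.00194, edgeR quasi-likelihood test with Benjamini-Hochberg adjustment over 14261 genes, as for all adjusted p-values here). Psmd12 (chr11:107479484-107504362) went from 81.2, 82.9 and 95.8 to 114, 118 and 129.7 CPM (0.48 ± 0.11, adjusted p = 0.0038). Psma1 (chr7:114264606-114276118) went from 89, 80.1 and 92.4 to 119, 119.6 and 109.9 CPM (0.42 ± 0.11, adjusted p = 0.0158). All treated libraries lay above all untreated ones for each of these genes. In this comparison 7.37% of all tested genes were called higher and 3.74% lower (a call is an adjusted p under 0.05). The median change was -0.12 over the 49 tested members and 0.01 over all tested genes.

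The same genes made up the calls in the other genotypes. In Smad3fl, where 6.38% of all tested genes were called higher and 5.64% lower, the 3 called members rose: Psmd12 from 94.5, 98.5 and 88.1 to 126, 137 and 138 CPM (0.51 ± 0.11, adjusted p = 0.00192), Psma1 from 101, 90.6 and 76.3 to 129, 129 and 123 (0.51 ± 0.11, adjusted p = 0.00306) and Psmd1 from 215, 225 and 216 to 267, 297 and 255 (0.32 ± 0.10, adjusted p = 0.0379). In the libraries labelled MyS2KO, where 2.9% of all tested genes were called higher and 0.505% lower, Psmd1 alone was called, with 119.5, 121 and 101 CPM untreated and 173, 154 and 149.9 with TGF-β1 (0.48 ± 0.10, adjusted p = 0.00439). In MyS3KO, where 6.54% of all tested genes were called higher and 3.47% lower, Psmd1 went from 164, 153 and 159.9 to 206, 219 and 219 CPM (0.43 ± 0.10, adjusted p = 0.00552) and Psmd12 from 99.3, 88.1 and 83.4 to 125, 113 and 122 (0.41 ± 0.11, adjusted p = 0.0131). Treated and untreated libraries of Psmd1 did not overlap in any of the 4 genotypes.

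**Figure D4:**
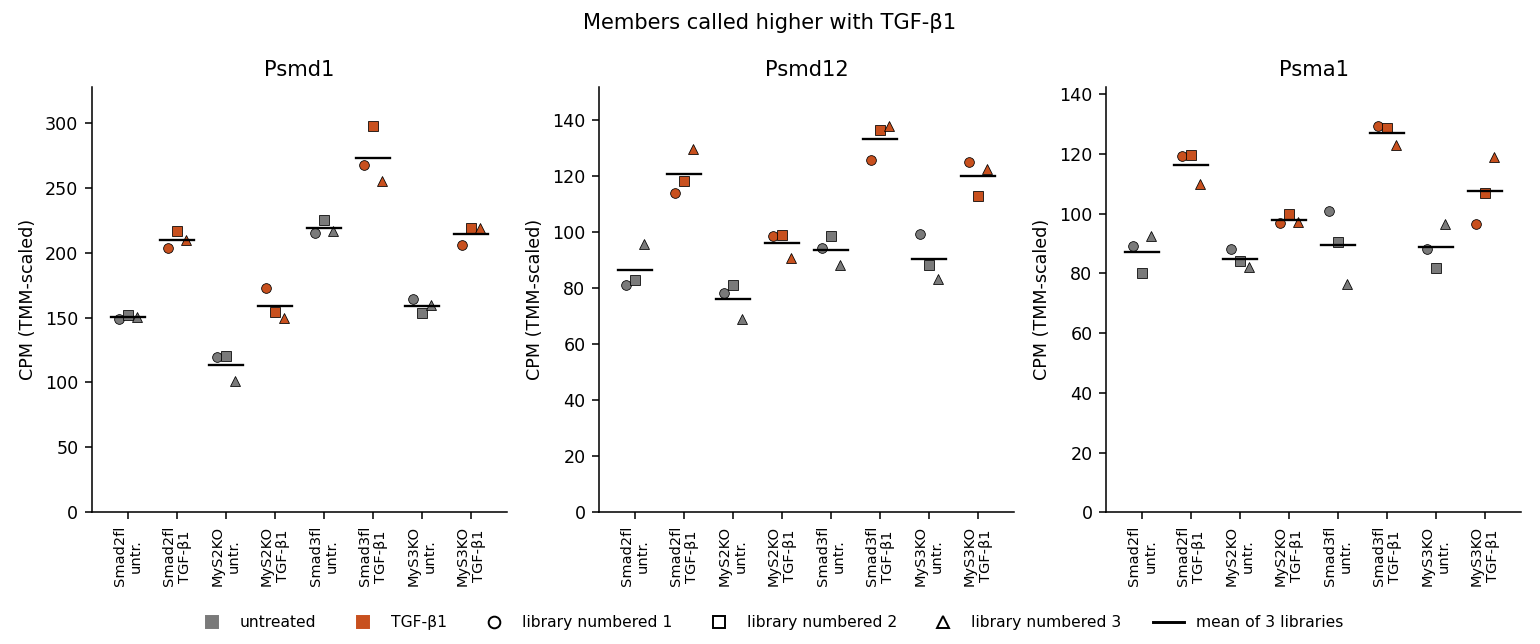
Level in CPM of Psmd1, Psmd12 and Psma1 in each of 24 libraries, by group, with a bar at the mean of 3 libraries, grey for untreated and orange for TGF-β1. In each genotype all 3 treated libraries lie above all 3 untreated ones for these genes.

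In the fit without a block the immunoproteasome subunits did not pass the test with TGF-β1 in any genotype. In Smad2fl their fitted changes were -0.46 (adjusted p = 0.288) for Psmb8, -0.47 (adjusted p = 0.25) for Psmb9 and -0.53 (adjusted p = 0.274) for Psmb10, beside -0.33, -0.41 and -0.23 for the constitutive Psmb5, Psmb6 and Psmb7. In Smad3fl they were -0.44, -0.46 and -0.44, with -0.50 for Psme1 and -0.55 for Psme2 (both not called, as in Smad2fl, where they were -0.38 and -0.44). In Smad2fl, too, some of the 11 alternatives called these genes lower, 1 each for Psmb8, Psmb9 and Psme1 and 2 each for Psmb10 and Psme2. The numbers of the libraries pair untreated with treated ones in Smad3fl, and with that pairing as a block 8 members were called there, 3 higher and 5 lower, among them Psme2 (-0.53, adjusted p = 0.00297), Psme1 (-0.44, adjusted p = 0.0124) and Psmb9 (-0.42, adjusted p = 0.0379). The same block called 23.2% of all tested genes. In the libraries labelled MyS2KO the pairing was less clear, with correlations of 0.15, 0.22 and 0.41 for equal numbers and up to 0.2 for unequal ones. The block called 2 members there, both higher, and 7.24% of all tested genes. In MyS3KO the 3 immunoproteasome changes were 0.10, -0.16 and -0.06.

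Psmd1 in Smad3fl lost its call when any 1 of the 6 libraries was left out (0.24 to 0.35, adjusted p = 0.0553 to 0.234), and without both libraries numbered 3 no member of Smad3fl was called (Psmd12 at 0.43 with adjusted p = 0.0501, Psma1 at 0.42 with adjusted p = 0.0547). The fit without both libraries numbered 3 called 6.66% of all tested genes. Single libraries also ended the calls of Psma1 in Smad2fl (5 of 6 libraries, 0.35 to 0.41, adjusted p = 0.0547 to 0.117), Psmd12 in Smad2fl (treated library 3, 0.38, adjusted p = 0.0519), Psmd1 in the libraries labelled MyS2KO (treated library 1, 0.42, adjusted p = 0.0505), Psmd1 in MyS3KO (untreated library 2, 0.37, adjusted p = 0.0521) and Psmd12 in MyS3KO (untreated 2 or 3 or treated 3, 0.33 to 0.37, adjusted p = 0.0761 to 0.102). Without the filter on low counts the adjusted p of Psmd1 was 0.0902 in Smad2fl, 0.157 in the libraries labelled MyS2KO, 0.413 in Smad3fl and 0.209 in MyS3KO. Exons of Psmd1 overlap those of Htr2b on the opposite strand and Gm21972 on the same strand, so part of its count could belong to either.

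Of 25 further genes for proteasome parts, assembly and control, Ddi2 rose in all 4 genotypes. It encodes a protease that cuts and activates NFE2L1, the transcription factor that restores proteasome gene expression when the proteasome is inhibited. Ddi2 went from 87.5, 71.3 and 78 to 199, 174 and 164 CPM in Smad2fl (1.18 ± 0.14, adjusted p = 1.82e-06), and its changes in the libraries labelled MyS2KO, in Smad3fl and in MyS3KO were 0.89 (adjusted p = 0.000195), 1.46 (adjusted p = 1.24e-07) and 1.08 (adjusted p = 6.88e-06). No treated library overlapped an untreated one of its genotype. Nfe2l1 itself fell in Smad3fl (-0.55, adjusted p = 0.0423) and was not called in the other genotypes. The other 23 genes of the list were not called with TGF-β1 in any genotype. Among 11 class I antigen processing genes only Nlrc5, an activator of class I genes, was called (Smad3fl, -0.56). In the list of 20 interferon regulators and targets, Stat2 (-0.79) and Socs1 (-1.46) fell in Smad3fl.

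Between the libraries labelled MyS2KO and Smad2fl no member was called. Untreated, 0.0351% of all tested genes were called higher and 0.0351% lower, and with TGF-β1 0.189% of all tested genes were called higher and 0.231% lower. Unadjusted p-values under 0.05 were found for 5 members untreated and 4 with TGF-β1. The smallest belonged to Psmd1, which was lower at 119.5, 121 and 101 CPM against 148, 152 and 150.1 untreated (-0.40 ± 0.10, adjusted p = 0.183) and at 173, 154 and 149.9 against 203, 216 and 209 with TGF-β1 (-0.40 ± 0.10, adjusted p = 0.0833). For Psmd1 all 3 libraries labelled MyS2KO lay below all 3 Smad2fl libraries under both treatments. DESeq2, used as a second tool, called Psmd1 lower in both. Next came Psme3, the nuclear PA28 cap, untreated (-0.30, adjusted p = 0.426) and Psmd12 with TGF-β1 (-0.33, adjusted p = 0.226). Psmb8, Psmb9 and Psmb10 differed by -0.12 to -0.05 untreated and by 0.22 to 0.31 with TGF-β1, and Psme1 and Psme2 by -0.10 and 0.00 untreated and 0.02 and 0.11 with TGF-β1, none called.

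In untreated MyS3KO against Smad3fl 8 members were called, 2 higher and 6 lower, where 8.37% of all tested genes were called higher and 9.38% lower. The member with the greatest change was Psmf1 (chr2:151715812-151744186), the PI31 inhibitor. Its levels were 5.78, 7.74 and 7.9 CPM in MyS3KO and 2.19, 1.75 and 4.04 in Smad3fl, a 2.69-fold difference (1.43 ± 0.27, adjusted p = 0.00101). Psmb1, a non-catalytic beta subunit (chr17:15475021-15499751), was also higher, at 138, 136 and 138 against 85.2, 86.7 and 126 CPM (0.47 ± 0.15, adjusted p = 0.0286). For neither gene did the groups overlap.

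The 6 members that were lower belong to the 19S cap and its assembly, with 1 exception. Psmc2, a base ATPase, was at 97, 91.5 and 88.2 CPM against 119.8, 134 and 141 (-0.51 ± 0.11, adjusted p = 0.00204), and Psmd1 at 164, 153 and 159.9 against 215, 225 and 216 (-0.46 ± 0.10, adjusted p = 0.0029). In neither gene did the groups overlap. The others were the assembly chaperone Psmd5 (-0.47, adjusted p = 0.0201), the ATPase Psmc5 (-0.41, adjusted p = 0.0482), the lid deubiquitinase Psmd14 (-0.37, adjusted p = 0.0281) and Psme3 (-0.33, adjusted p = 0.0489), which is no 19S gene. All 6 ATPases of the base had fitted changes below 0, with a median of -0.30 against -0.03 for all genes, and 2 of the 6 were called. Psmb8, Psmb9 and Psmb10 had fitted changes of -0.02, 0.31 and 0.44, none called, beside -0.08, -0.09 and -0.16 for Psmb5, Psmb6 and Psmb7. Those of Psme1 and Psme2 were 0.26 and 0.03. Without both Smad3fl libraries numbered 3, Psmb9 (0.69, adjusted p = 0.034), Psmb10 (0.93, adjusted p = 0.0137) and Psme1 (0.67, adjusted p = 0.00745) were called higher, and Psmb8 (0.29, adjusted p = 0.435) and Psme2 (0.32, adjusted p = 0.278) were not.

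Psmf1 and Psmc2 kept their calls under all 13 alternatives tried. Leaving out 1 library ended the call of Psmb1 (Smad3fl 1 or 2, MyS3KO 2 or 3, 0.38 to 0.49, adjusted p = 0.0675 to 0.142), Psmd5 (Smad3fl 2 or MyS3KO 3, -0.48 to -0.37, adjusted p = 0.052 to 0.129), Psmd14 (Smad3fl 1 or 2, MyS3KO 2 or 3, -0.37 to -0.27, adjusted p = 0.0704 to 0.182), Psmc5 (Smad3fl 2 or 3 or any MyS3KO library, -0.44 to -0.27, adjusted p = 0.0675 to 0.186) and Psme3 (Smad3fl 1 or 3 or any MyS3KO library, -0.36 to -0.19, adjusted p = 0.0758 to 0.235), and without both Smad3fl libraries numbered 3 the count was 13, 9 higher and 4 lower, where 23.8% of all tested genes were called. That setting also ended the calls of Psmd5 (-0.40, adjusted p = 0.0623), Psmc5 (-0.27, adjusted p = 0.205) and Psme3 (-0.18, adjusted p = 0.255).

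With TGF-β1 12 members were called between MyS3KO and Smad3fl, 9 higher and 3 lower, where 15% of all tested genes were called higher and 13.2% lower. Psmf1 was again the member with the greatest difference, at 6.86, 6.15 and 8.18 CPM in MyS3KO and 3.08, 2.15 and 2.29 in Smad3fl, or 2.81-fold (1.49 ± 0.27, adjusted p = 0.000641). Psmb1 was at 156, 114 and 137 against 73.6, 82.7 and 89 CPM (0.73 ± 0.15, adjusted p = 0.00143). Psmc6, a base ATPase (chr14:45329788-45349705), was lower at 26.4, 41.6 and 34.9 against 77.5, 88.9 and 81 CPM (-1.26 ± 0.34, adjusted p = 0.00958). The groups of these 3 genes did not overlap, and their calls held under all 13 alternatives. The base ATPases did not share a direction here. Group means of Psmc3 (77.45 against 71.63 CPM) and Psmc4 (69.95 against 62.41 CPM) were higher in treated MyS3KO than in treated Smad3fl. Those of Psmc2, Psmc5 and Psmc6 were lower.

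Of the immunoproteasome and PA28 genes, Psmb10 and Psme1 were higher in treated MyS3KO. Psmb10 (chr8:105935735-105938444) was at 299, 168 and 181 against 88.9, 118 and 160.3 CPM (0.82 ± 0.29, adjusted p = 0.0398), and Psme1 (chr14:55578123-55581529) at 433, 276 and 306 against 170.1, 191 and 238 (0.76 ± 0.21, adjusted p = 0.0121). Psmb9 (0.61, adjusted p = 0.0677), Psmb8 (0.51, adjusted p = 0.143) and Psme2 (0.39, adjusted p = 0.191) were not called. Without both Smad3fl libraries numbered 3, Psmb9 (0.79, adjusted p = 0.0154) and Psmb8 (0.71, adjusted p = 0.04998) were called higher too, Psmd13 (0.41, adjusted p = 0.0555) was not, and 14 members in all, where 26.5% of all tested genes were called. Library 1 of MyS3KO was highest for all 5. The calls of Psmb10 (0.53 to 0.79, adjusted p = 0.113 to 0.213) and Psme1 (0.56 to 0.73, adjusted p = 0.0523 to 0.0736) were lost without treated MyS3KO 1 or treated Smad3fl 1 or 2, and without both MyS3KO libraries numbered 1 Psmb10 (0.52, adjusted p = 0.217) and Psme1 (0.55, adjusted p = 0.073) were not called. The median change of Psmb8, Psmb9 and Psmb10 was 0.61, that of Psmb5, Psmb6 and Psmb7 0.28 and that of all genes 0.01. In the fit with all libraries 15% of all tested genes were called higher and 13.2% lower, beside which the counts that follow are to be read. Of 11 class I antigen processing genes 4 rose (Tapbp 0.85, Tap2 0.76, H2-D1 0.65 and H2-K1 0.64) and Canx fell (-0.37). Of 20 interferon regulators and targets only 2 rose (Stat2 0.77 and Oasl2 0.41). The 8 macrophage markers summed to 16760 to 24070 CPM in treated MyS3KO and 15040 to 18880 in treated Smad3fl, with 2 of 8 called higher, and their part in the result was not tested.

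The remaining called members were the lid subunits Psmd8 (0.58, adjusted p = 0.0173), Psmd13 (0.40, adjusted p = 0.0449) and Psmd6 (-0.44, adjusted p = 0.0182), the scaffold Psmd1 (-0.35, adjusted p = 0.0134), the chaperone Psmd10 (0.35, adjusted p = 0.0326) and the alpha subunits Psma4 (0.32, adjusted p = 0.0425) and Psma2 (0.31, adjusted p = 0.0484). Psmd1 was thus lower in MyS3KO under both treatments, while the alpha and beta rings had medians of 0.28 for 8 alpha and 0.38 for 4 non-catalytic beta subunits. Each of these 7 calls was lost without single libraries, as for Psmd8 (Smad3fl 1 or 2 or MyS3KO 1, 0.44 to 0.58, adjusted p = 0.0543 to 0.0863), Psmd6 (Smad3fl 1 or 2 or MyS3KO 1 or 3, -0.43 to -0.41, adjusted p = 0.0528 to 0.0643), Psmd1 (Smad3fl 2 or MyS3KO 1, -0.31 to -0.29, adjusted p = 0.0575 to 0.0847) and Psmd10 (Smad3fl 1 or 2 or MyS3KO 1 or 2, 0.31 to 0.34, adjusted p = 0.0759 to 0.111). Likewise lost were Psmd13 (any 1 of the 6 libraries, 0.37 to 0.43, adjusted p = 0.0745 to 0.136), Psma4 (any 1 of the 6 libraries, 0.28 to 0.36, adjusted p = 0.0542 to 0.134) and Psma2 (any Smad3fl library or MyS3KO 1 or 3, 0.25 to 0.37, adjusted p = 0.0547 to 0.158). Psmd13 overlaps Sirt3, Psma4 overlaps AY074887 and Psme1 overlaps Emc9 on opposite strands.

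**Figure D5:**
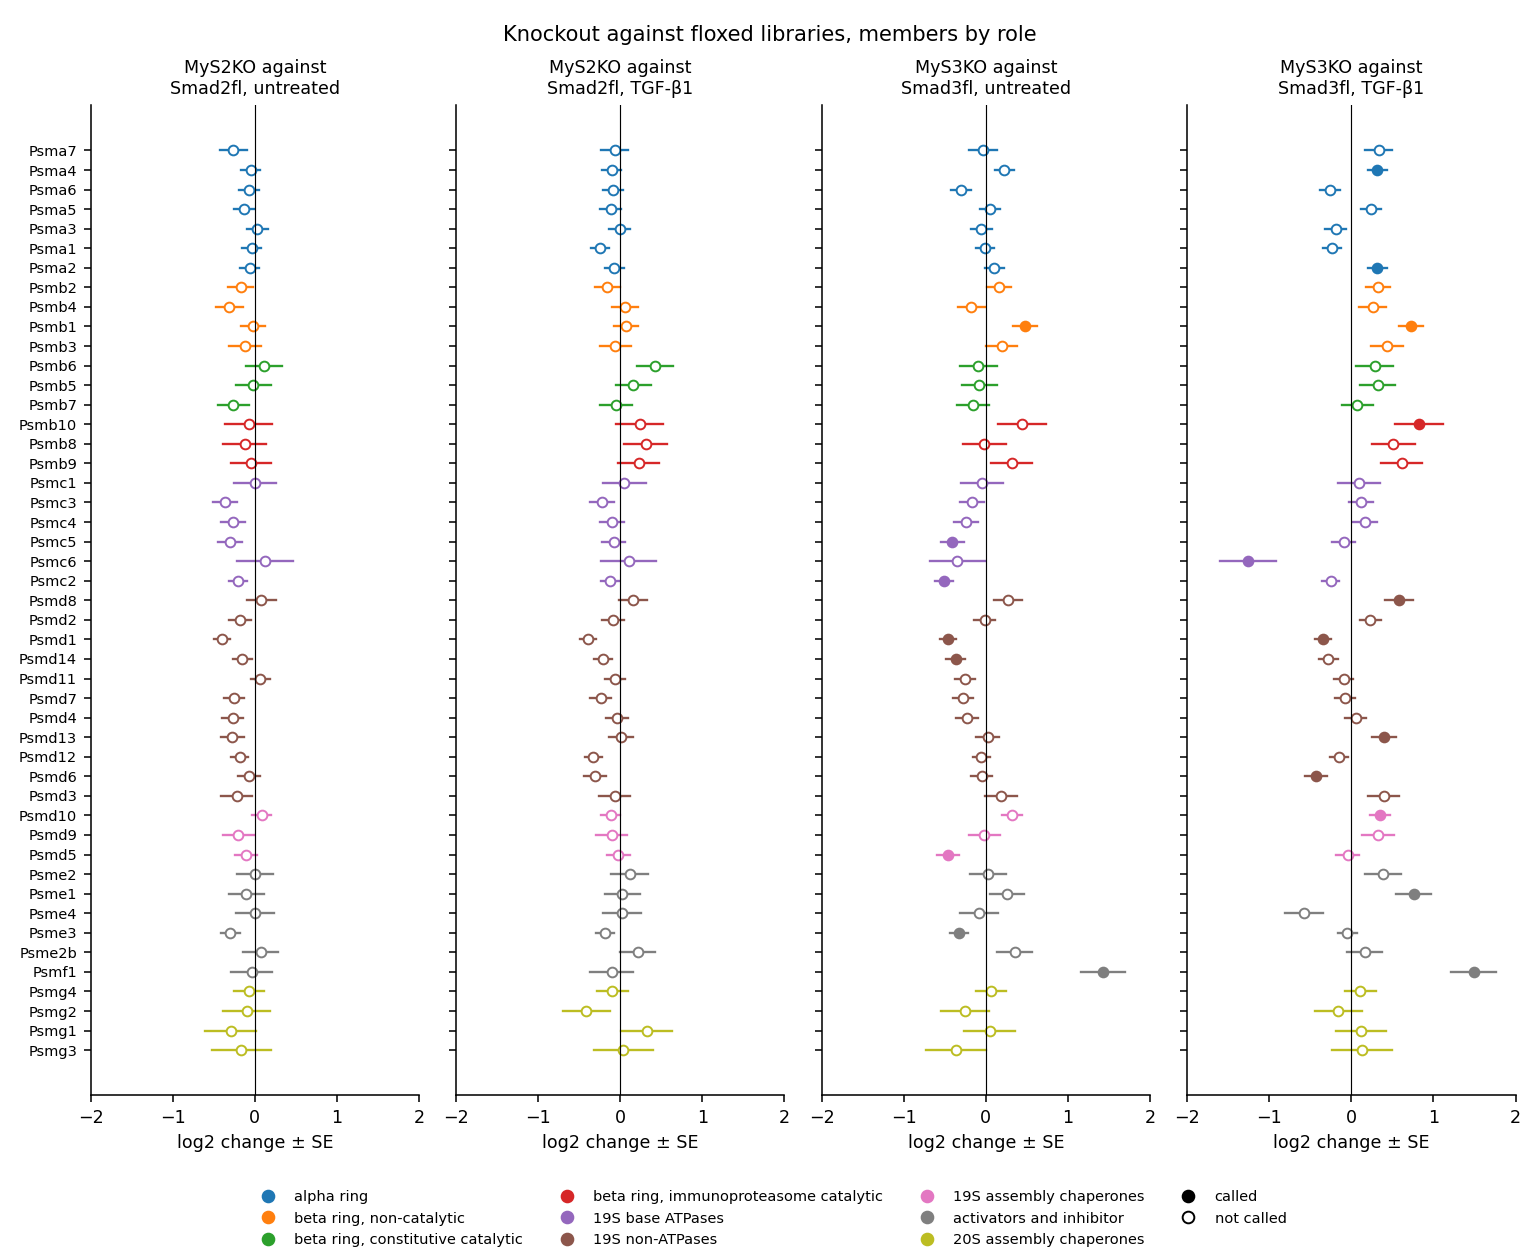
Fitted log2 change with its SE for 47 tested members, grouped by role, in the 4 comparisons of knockout with floxed libraries (positive is higher under the knockout label, filled points were called, Psma8 and Psmc3ip are left out for their low counts). No point is filled in the Smad2 line, and Psmf1 is the member farthest to the right in both comparisons of the Smad3 line.

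The 25 genes of proteasome control were read in the same comparisons. Untreated, 9 were called, 2 higher and 7 lower, where 8.37% of all tested genes were called higher and 9.38% lower. Zfand5, which stimulates the proteasome, was lower (-0.85, adjusted p = 0.00293), and so were the ubiquitin receptor Adrm1 (-0.53), Nfe2l1 (-0.52), the VCP adaptor Nploc4 (-0.50) and Ngly1 (-0.47), which trims sugars from NFE2L1. Sem1, a small lid subunit outside the Psm names, was higher (0.60). None of 11 class I genes and 1 of 20 interferon genes, Oasl2 (0.37), was called. The macrophage markers summed to 18690 to 21910 CPM in MyS3KO and 16530 to 28500 in Smad3fl, with 2 of 8 called higher and 1 lower. With TGF-β1 5 of 25 were called, 3 higher and 2 lower, a smaller share than the 28.2% of all tested genes. Zfand5 (-0.91) and Ngly1 (-0.47) were lower, and the ubiquilin Ubqln4 (0.78) and the 20S maturation factor Pomp (0.28) were higher.

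The TGF-β1 response of no member was called different between knockout and floxed libraries. In the Smad2 line, where 0% of all tested genes were called higher and 0.00701% lower, no member had an unadjusted p under 0.05, and the smallest p-values were those of Psmb4 (0.37, adjusted p = 1) and Psmg1 (0.62, adjusted p = 1). In the Smad3 line, where 0.021% of all tested genes were called higher and 0% lower, 2 members did, Psmd5 (0.42, adjusted p = 0.728) and Psmc3ip (-1.75, adjusted p = 0.728). For Psmd1 the difference in response was 0.00 ± 0.14 in the Smad2 line and 0.11 ± 0.14 in the Smad3 line. For Psmd12 it was -0.14 ± 0.15 and -0.10 ± 0.15, and for Psma1 -0.21 ± 0.16 and -0.23 ± 0.16. A p that misses the threshold does not show equal responses. The medians over the 49 members were 0.08 in the Smad2 line and 0.21 in the Smad3 line, against 0.01 and 0.07 over all genes.

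The floxed libraries of the lines were compared with each other because Smad3fl enters every comparison of its line. The line and its floxed gene cannot be told apart here, and these comparisons share the Smad3fl libraries with those of MyS3KO above. Untreated, 12 members were called, 5 higher and 7 lower in Smad3fl, where 17.7% of all tested genes were called higher and 15.6% lower. Psmf1 was lower, at 2.19, 1.75 and 4.04 CPM against 9.9, 10.7 and 7.05 (-1.79 ± 0.27, adjusted p = 5.03e-05), and Psmb1 at 85.2, 86.7 and 126 against 145, 180.5 and 160.1 (-0.71 ± 0.15, adjusted p = 0.00111). Psmd1 was higher, at 215, 225 and 216 against 148, 152 and 150.1 (0.55 ± 0.10, adjusted p = 0.00036). The groups of the 3 genes did not overlap, and the calls held under all 12 alternatives. Untreated MyS3KO lay between untreated Smad3fl and Smad2fl in the group mean of Psmf1, Psmb1 and Psmd1.

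Psmb10 (-1.04 ± 0.29, adjusted p = 0.00964) and Psme1 (-0.77 ± 0.21, adjusted p = 0.00881) were also lower in untreated Smad3fl, and Psmb9 (-0.54, adjusted p = 0.0945) and Psmb8 (-0.42, adjusted p = 0.221) were not called. The other lower members were Psmd3 (-0.59), Psma4 (-0.43) and Psmb2 (-0.40), and the other higher ones Psme4, the PA200 cap (0.70), Psmc2 (0.44), Psma6 (0.41) and Psmd14 (0.36). Calls lost without a single library were Psmb10 (Smad2fl 2 or Smad3fl 1 or 2, -0.94 to -0.79, adjusted p = 0.0522 to 0.0607), Psme1 (Smad3fl 1 or 2, -0.67 to -0.58, adjusted p = 0.0549 to 0.0571), Psmd3 (Smad2fl 2 or Smad3fl 2, -0.45 to -0.40, adjusted p = 0.123 to 0.138) and Psma4 (Smad2fl 3, -0.31, adjusted p = 0.0563), and also Psmb2 (Smad2fl 2 or 3 or Smad3fl 1 or 2, -0.39 to -0.27, adjusted p = 0.092 to 0.211), Psme4 (Smad2fl 2 or 3 or Smad3fl 1 or 2, 0.50 to 0.70, adjusted p = 0.0626 to 0.146), Psma6 (Smad2fl 1 or 2 or Smad3fl 2, 0.31 to 0.37, adjusted p = 0.0592 to 0.102) and Psmd14 (Smad2fl 1 or 2 or Smad3fl 1 or 2, 0.25 to 0.35, adjusted p = 0.0535 to 0.155). Without both Smad3fl libraries numbered 3, 25 members were called, 7 higher and 18 lower, where 39.9% of all tested genes were called, with Psmb10 at -1.53, adjusted p = 0.00018 and Psme1 at -1.19, adjusted p = 2.92e-05.

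With TGF-β1 10 members were called, 4 higher and 6 lower in Smad3fl, where 12% of all tested genes were called higher and 13.3% lower. Psmf1 (-1.43, adjusted p = 0.000739), Psmb1 (-0.71, adjusted p = 0.00164), Psme1 (-0.90, adjusted p = 0.00445) and Psma4 (-0.48, adjusted p = 0.00453) were lower under all 12 alternatives. Psmb10 (-0.95, adjusted p = 0.0208) and the chaperone Psmd10 (-0.47) were lower as well, and Psmc6 (0.97), Psmd1 (0.38), Psmd14 (0.33) and Psmc2 (0.32) were higher. Calls lost without a single library were Psmb10 (Smad2fl 2 or Smad3fl 1 or 2, -0.94 to -0.81, adjusted p = 0.0543 to 0.0876), Psmc6 (Smad2fl 1 or 2 or any Smad3fl library, 0.84 to 0.97, adjusted p = 0.0732 to 0.144), Psmd1 (Smad2fl 1 or Smad3fl 2, 0.31 to 0.34, adjusted p = 0.0506 to 0.0708), Psmd14 (any 1 of the 6 libraries, 0.26 to 0.37, adjusted p = 0.0668 to 0.172) and Psmc2 (Smad2fl 1 or 3 or any Smad3fl library, 0.27 to 0.33, adjusted p = 0.0636 to 0.104). Without both Smad3fl libraries numbered 3, Psmd14 (0.32, adjusted p = 0.0627) and Psmc2 (0.28, adjusted p = 0.0798) were not called, and 12 members were called in all, where 24.9% of all tested genes were called. The median change of Psmb8, Psmb9 and Psmb10 was -0.54 untreated and -0.53 with TGF-β1, and that of Psmb5, Psmb6 and Psmb7 -0.13 and -0.07.

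Of the 25 genes of proteasome control 8 were called untreated, 5 higher and 3 lower in Smad3fl, which is close to the share of 33.4% among all tested genes (led by Zfand5 1.18, Ubqln4 -0.75, Ngly1 0.60, Sem1 -0.57, Ddi2 -0.43 and Vcp 0.41), and 6 with TGF-β1, 3 in each direction, where 25.3% of all tested genes were called (among them Zfand5 0.89, Sem1 -0.60, Ngly1 0.50, Pomp -0.31 and Vcp 0.29). Interferon and macrophage genes moved with the immunoproteasome differences. Of 20 interferon regulators and targets 6 were called lower in untreated Smad3fl (Socs1 -1.54, Irf1 -0.97, Irf8 -0.96, Irf7 -0.74, Oas1a -0.55 and Oasl2 -0.44) and 9 with TGF-β1 (led by Socs1 -1.69, Irf1 -1.25, Mx1 -1.19, Gbp2 -1.01, Stat2 -0.92 and Irf7 -0.77), none higher. In the class I list Tapbp was lower under both treatments (-0.67 and -0.69), B2m in untreated libraries (-0.47) and Nlrc5 in treated ones (-0.77), while Canx was higher (0.61 and 0.52). Of 8 macrophage markers 4 were called lower untreated and 5 with TGF-β1, with Lyz2 at -1.47 and -1.59. Of the other cell types' markers, 2 of 4 tested neutrophil and 1 of 4 tested dendritic cell genes were called higher under both treatments. The 6 dendritic cell markers summed to 32.57 to 40.37 CPM in untreated Smad3fl and 18.53 to 22.25 in untreated Smad2fl. With TGF-β1 their sums overlapped, at 19.56 to 25.21 CPM in Smad3fl and 19.17 to 31.46 in Smad2fl. The macrophage markers summed to 16530 to 28500 CPM in untreated Smad3fl and to 26610 to 31020 in untreated Smad2fl, and 15040 to 18880 against 22580 to 24030 with TGF-β1. The part of these genes and cells in the result was not tested.

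Whether the difference between knockout and floxed libraries itself differed between the lines was tested as an addition chosen after the values had been seen. Psmf1 was the only member called, with a difference of 1.47 ± 0.37, adjusted p = 0.0246 untreated and 1.60 ± 0.38, adjusted p = 0.0152 with TGF-β1. Untreated, 2.09% of all tested genes were called higher and 2.84% lower, and with TGF-β1 3.83% of all tested genes were called higher and 3.26% lower. In the Smad2 line Psmf1 was at 7.57, 8.01 and 11.3 CPM in untreated libraries labelled MyS2KO and 9.9, 10.7 and 7.05 in Smad2fl, which overlap (-0.04 ± 0.25). Zfand5 (-1.19 untreated and -1.15 with TGF-β1) and Pomp (0.49 with TGF-β1) were the genes called in the list of proteasome control. The call was lost on leaving out any of 7 single libraries untreated (Smad2fl 2, MyS2KO 1 or 2, Smad3fl 1 or 2 and MyS3KO 2 or 3, 1.27 to 1.45, adjusted p = 0.055 to 0.0783) and any of 3 with TGF-β1 (Smad2fl 1, MyS2KO 1 and Smad3fl 2, 1.46 to 1.5, adjusted p = 0.05005 to 0.0559).

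Of the 49 tested members 26 were called in none of the 12 planned comparisons. They include the alpha subunits Psma3, Psma5, Psma7 and Psma8, the beta subunits Psmb3 and Psmb4, the constitutive catalytic subunits Psmb5, Psmb6 and Psmb7, the immunoproteasome subunits Psmb8 and Psmb9, and all 4 Psmg chaperones. Psme2 was also called in none, and its near copy Psme2b, at 33.3 FPKM, shares sequence with it, so reads may have been split between them. Psmd1 was called most often, in 8 of the 12 comparisons, and Psmf1 and Psmb1 followed with 4 each. The comparisons share libraries, so repeated calls of a gene are not separate findings. How often all tested genes were called over the 12 comparisons was not computed, so these counts show no trait of the proteasome genes. Psmc3ip, at 0.159 to 0.996 CPM, was not called in any comparison.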

How the data were processed

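Gene counts and FPKM values of 24 libraries were used as the authors deposited them, in separate tables. The submitters' processing notes name TopHat2 2.0.9, Cufflinks 2.1.1 and HTSeq 0.6.1 without their roles and the build mm10, GRCm38.p6; the strand setting is not given in the sources used here. Counts were fitted over all 8 groups with edgeR 4.0.16 (R 4.3.3) by the quasi-likelihood test, with TMM scaling and edgeR's filter on low counts, and p-values were adjusted by Benjamini-Hochberg over 14261 genes. The median biological coefficient of variation was 21.2% and the residual degrees of freedom were 16. CPM use the TMM-scaled library sizes. FPKM served for levels between genes only. Alternatives were RLE scaling, DESeq2 1.42.0, no filter, a block on the library number, fewer groups in the fit and leaving out libraries, and the fit was tested on simulated data.

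The members and all gene lists were chosen with earlier results of these data known. Named were the 6 catalytic subunits, Psme1, Psme2 and Psmc3ip, all called members up to 12 a comparison by size of change (the 2 with the smallest p where none was called), and up to 6 called genes of each other list; further values were named after they were seen, and some genes of these lists are not reported here. Library numbers were taken to pair untreated with treated libraries where all 3 correlations of their deviations exceeded 0.1, which held for the libraries labelled MyS2KO (0.15, 0.22 and 0.41) and Smad3fl (0.45, 0.34 and 0.33). Libraries with unequal numbers reached 0.2 in those labelled MyS2KO, above the 0.15 of equal numbers, and at most -0.09 in Smad3fl. In Smad2fl equal numbers gave 0.05, 0.13 and 0.16 and unequal ones at most 0.04, so the rule may miss a pairing there. Promoters came from RefSeq, GRCm38.p6. Psma8 and Psmg2 promoters were not used here.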

Additional observations from a re-analysis of the deposited data

Results flagged for a closer look

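The difference between knockout and floxed libraries in Psmf1, the gene of the proteasome inhibitor PI31, was larger in the Smad3 line than in the Smad2 line by a test of that difference itself. The difference of the log2 changes was 1.47 ± 0.37, adjusted p = 0.0246, in untreated libraries and 1.6 ± 0.38, adjusted p = 0.0152, with TGF-β1 (edgeR, Benjamini-Hochberg adjustment over all tested genes). The comparison was chosen after the values had been seen, and all 3 MyS3KO libraries exceeded all 3 Smad3fl libraries under both treatments. The Smad3fl libraries were also lower in Psmf1 than the Smad2fl libraries, at only 1.755 to 4.04 CPM. Leaving out any of 7 single libraries ended the call untreated (adjusted p = 0.055 to 0.0783). With TGF-β1 any of 3 single libraries did so (adjusted p = 0.05005 to 0.0559). Smad2 RNA was not lower under the MyS2KO label, so the side of the Smad2 line rests on the label.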

How the results depend on the processing

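Of 53 values of called genes, recomputed 664 times in all, none changed sign, 201 recomputations lost the call and 12 values lost it under no alternative. Of 36 values of genes not called, 29 of 450 recomputations passed the threshold and 20 changed sign. The cause was not tested in any of these. Between untreated MyS3KO and Smad3fl, Psmb8 was at 0.01 with a block on the library number, 0.01 in the line alone and 0.29 without both Smad3fl libraries numbered 3. Psme1 with TGF-β1 in MyS3KO was at 0 in the line alone. Without both MyS3KO libraries numbered 1, chosen after seeing the data, Psmb8 with TGF-β1 in MyS3KO was at -0.22 and Psme2 in untreated MyS3KO against Smad3fl at -0.05. Leaving out 1 library gave -0.29 to 0.22 for Psmb8 with TGF-β1 in the libraries labelled MyS2KO, -0.20 to 0.25 for it in MyS3KO and -0.21 to 0.29 for it between untreated MyS3KO and Smad3fl. The ranges were -0.72 to 0.02 and -0.37 to 0.06 for Psmb10 with TGF-β1 in Smad3fl and MyS3KO, -0.22 to 0.09 for Psme1 with TGF-β1 in MyS3KO and -0.16 to 0.32 for Psme2 between untreated MyS3KO and Smad3fl.

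Members called with 1 library left out numbered 1 to 3 in Smad2fl, 0 to 1 in the libraries labelled MyS2KO and 0 to 3 in MyS3KO with TGF-β1. Between MyS3KO and Smad3fl they numbered 3 to 14 untreated and 3 to 10 with TGF-β1, between Smad3fl and Smad2fl 5 to 22 and 5 to 9, and for the difference of the knockout effects 0 to 4 and 0 to 2. Without the filter on low counts 1 member was called with TGF-β1 in Smad2fl, 0 in the libraries labelled MyS2KO and 1 in MyS3KO, 3 between untreated MyS3KO and Smad3fl, 1 in the interaction of the Smad3 line and 3 in the difference of the treated knockout effects. In the line alone 3 (untreated) and 7 (TGF-β1) were called between MyS3KO and Smad3fl, and in the 6 libraries alone 3 and 18 between Smad3fl and Smad2fl. Without both Smad3fl libraries numbered 3 the counts were 0 with TGF-β1 in Smad3fl, 13 between untreated MyS3KO and Smad3fl, 25 between untreated Smad3fl and Smad2fl and 4 in each difference of knockout effects. The shares of all tested genes called were 6.66%, 23.8% and 39.9% in the first 3 and 13% (untreated) and 10.1% (TGF-β1) in the differences. Without both MyS3KO libraries numbered 1, 5 were called between treated MyS3KO and Smad3fl, where 23.8% of all tested genes were called. DESeq2 called 1 member between the libraries labelled MyS2KO and Smad2fl under each treatment and 3 in the difference of the treated knockout effects. The share of all tested genes called is not given here for DESeq2, no filter, fewer groups in the fit and leaving out 1 library. The member counts of those settings therefore say nothing particular to the members.

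With the library number as a block within a genotype, 10 members were called with TGF-β1 in Smad2fl, where 22.7% of all tested genes were called. The numbers did not meet the rule for pairing there. The block called 8 members in Smad3fl (23.2% of all tested genes) and 2 in the libraries labelled MyS2KO (7.24% of all tested genes). With the number as a block across groups, 2 were called in the difference of the treated knockout effects, where 8.39% of all tested genes were called.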
